A study of Mus musculus with 6 samples.

Results

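The nuclear-encoded genes of oxidative phosphorylation were read out in splenic follicular helper T (Tfh) cells of CTL and Prdm1-CKO mice. They were taken by name from the protein-coding genes of the GENCODE M21 annotation of GRCm38: symbols starting with Ndufa, Ndufb, Ndufc, Ndufs or Ndufv for complex I, Sdha, Sdhb, Sdhc and Sdhd for complex II, symbols starting with Uqcr together with Cyc1 for complex III, symbols starting with Cox4 to Cox8 for complex IV, and symbols starting with Atp5 for complex V, without the Ndufaf assembly factors. Of the 53379 gene identifiers counted in each mouse, 86 were members: 38 of complex I, 4 of complex II, 9 of complex III, 18 of complex IV and 17 of complex V. The expression filter passed 79 of them into the test, and the 7 that it left out all belonged to complexes I and IV.

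The mice were females of 6 to 8 weeks, immunized with NP-CGG in complete Freund's adjuvant, and the spleen was taken on day 7. Prdm1-CKO mice carried Prdm1 fl/fl with CD11c-CRE+, so that Prdm1, which encodes the transcriptional repressor BLIMP-1, is deleted by design in dendritic cells with high CD11c and not in the T cells that were sequenced. CTL mice were Prdm1 fl/fl with CD11c-CRE- or Prdm1+/+ with CD11c-CRE+, and the labels do not say which of these each CTL mouse was. The titles call the second group a knockout of Blimp1 and the genotype field a knockdown. Tfh cells were sorted as live TCRβ+CD4+CXCR5+PD1+ cells, and each of 3 CTL and 3 Prdm1-CKO mice gave 1 library, so that replicates are mice. Since the gene is deleted in another cell type, its own level in Tfh cells is no check of the labels.

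Oxidative phosphorylation is carried out by the respiratory chain and the ATP synthase of the inner mitochondrial membrane. Complexes I and II pass electrons from NADH and succinate to ubiquinone, complex III passes them on to cytochrome c, complex IV hands them to oxygen, and complex V makes ATP from the proton gradient that complexes I, III and IV build. Most subunits are made from nuclear genes and imported, while a small core of complexes I, III, IV and V is encoded by the mitochondrial genome. Activated T cells use this pathway beside glycolysis, and its transcripts are abundant in most cells.

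Total counts per library lay between 7147601 and 16973392. A level of 3 counts, taken as the floor, was 0.169 to 0.444 CPM, where CPM is a gene's count scaled to the library size with edgeR's TMM factors, and this floor covers counting error only. CTL replicate 2 stood apart, with a mean correlation of log2 CPM with the other mice of 0.875 across genes, against 0.923 to 0.944 for the other 5 libraries. Mitochondrial genes took 5.83% of its counts and 2.11% to 4.41% in the others. None of the 9 Tfh markers was at 0 in all libraries, and their summed level was 2553 to 3460 CPM in CTL and 2493 to 2736 CPM in Prdm1-CKO mice.

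Members took 0.936% to 1.26% of the counts of a library. In the order of the replicates, their summed level was 10886, 9560 and 12203 CPM in the CTL group and 12082, 12403 and 11420 CPM in the Prdm1-CKO group, and all values per mouse below follow that order. The groups overlapped, since CTL replicate 3 was above 2 of the 3 Prdm1-CKO mice, and CTL replicate 2 was the lowest mouse. The mean was 10883 ± 1321 CPM (SD, n = 3) in CTL and 11969 ± 501 CPM (SD, n = 3) in Prdm1-CKO mice, which is 9.97% higher, or 3.67% higher without CTL replicate 2. In bulk samples, fewer cells of a type and less RNA per cell cannot be told apart.

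When 3 Prdm1-CKO mice were tested against 3 CTL mice by edgeR's quasi-likelihood method, no member passed an adjusted p under 0.05, with 0 of 79 higher and 0 of 79 lower, where 0% of the 14555 genes tested did so in either direction. The smallest adjusted p of a member was 0.996, and DESeq2's Wald test also called 0 members. At an unadjusted p under 0.05, 1 member was higher and 0 were lower in edgeR, beside 0.928% of all genes higher and 1.42% lower, and DESeq2 gave 1 member in all. The log2 fold change of Prdm1-CKO over CTL was above 0 in 75 of 79 members, beside 51.1% of all genes tested. Its median was 0.18 over the members, against 0.01 over all genes. The median standard error of a member's log2 fold change was 0.20, and 35 members had a log2 fold change larger in size than their own standard error, 2 of them larger than 2 standard errors. Without CTL replicate 2 the median over the members was 0.07 and 56 of 79 were above 0, and the log2 fold change of 75 members was smaller than with all 6 mice.

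CTL replicate 2 was the lowest of the 6 mice in 65 of the 79 members, or 82.3%, and in 34.9% of all genes tested. Prdm1-CKO replicate 2 was the highest in 49 members, or 62.0%, against 16.6% of all genes. The next highest counts were 13 members each for CTL replicate 3 and Prdm1-CKO replicate 1. Relative to each gene's mean over the 6 mice, the median member was at -0.08, -0.32 and 0.13 log2 units in the CTL group and at 0.09, 0.23 and -0.01 in the Prdm1-CKO group. The low mouse of the CTL group and the high mouse of the Prdm1-CKO group stand out in the map of members by mouse. Leaving out Prdm1-CKO replicate 2 gave a median log2 fold change of 0.14 over the members, and leaving out CTL replicate 3 one of 0.30. Mice of a group differed less in the members than in all genes tested: the median SD within groups was 0.23 log2 units for members and 0.40 for all genes. It was 0.19 for genes of the tricarboxylic acid cycle, 0.29 for assembly factors and 0.32 for genes of electron carriers. Regulators of mitochondrial genes were at 0.34 and mitochondrially encoded subunits at 0.60. These sets were not matched for level.

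**Figure D1:**
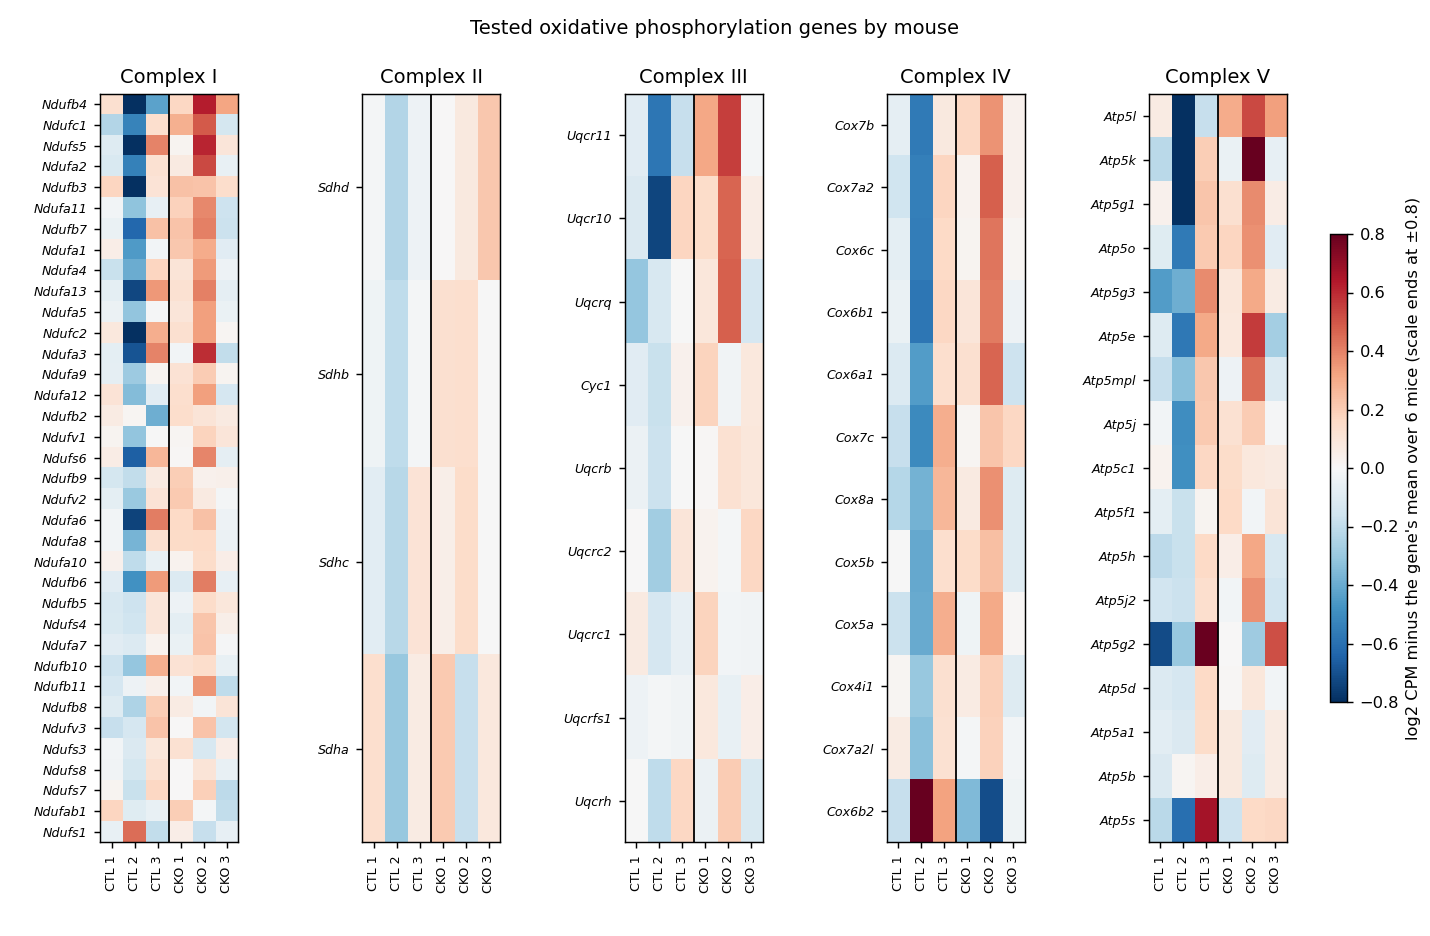
Each row is 1 of 78 of the 79 tested members, sorted within its complex by the fold change, each column is 1 mouse, and the colour is log2 CPM minus the gene's mean over the 6 mice, with the scale ending at 0.8 on either side. The column of CTL replicate 2 is the lowest in 64 rows, and that of Prdm1-CKO replicate 2 is the highest in 49.

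The 3 Prdm1-CKO mice were all higher than the 3 CTL mice in 8 of the 79 members, or 10.1%, where 4.56% of all genes tested did so. The reverse order was seen in 0 members, against 3.86% of all genes. The 8 members were Uqcr11, Atp5l, Ndufb4, Ndufa9, Sdhd, Sdhb, Uqcrb and Ndufb2. Leaving out CTL replicate 3 raised the number to 46, leaving out Prdm1-CKO replicate 3 raised it to 18, and leaving out Prdm1-CKO replicate 2 raised it to 14. Without CTL replicate 2, and with the other 5 libraries rescaled, 6 members did not overlap. With the scaling of all 6 libraries kept, the number without that mouse was 8 of 79 members, beside 1120 of 14555 genes. The reverse order was then seen in 0 members and 1198 genes. A group of 2 mice overlaps less readily by construction, and the number over all genes was not counted for the other mice left out.

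Complex I takes electrons from NADH through a flavin and a chain of iron-sulfur clusters. Its 38 members had a summed level of 2908 ± 404 CPM (SD, n = 3) in CTL and of 3262 ± 261 CPM in Prdm1-CKO mice (SD, n = 3), and the groups overlapped. The median log2 fold change of its 37 tested members was 0.18, with 34 above 0, and 0.07 without CTL replicate 2, with 25 above 0. The 2 members with the smallest p were Ndufb4 and Ndufc1, small accessory subunits of the membrane arm. Ndufb4 was at 11.2, 5.80 and 7.55 CPM in CTL and at 11.5, 15.9 and 12.7 CPM in Prdm1-CKO mice. All Prdm1-CKO mice were higher, but Prdm1-CKO replicate 1 exceeded CTL replicate 1 by little, and the log2 fold change was 0.70 (standard error 0.35), or 0.49 without CTL replicate 2. Ndufc1 was at 21.4, 17.4 and 27.7 CPM in CTL and at 30.8, 35.5 and 22.9 CPM in Prdm1-CKO mice. The groups overlapped through CTL replicate 3 and Prdm1-CKO replicate 3, with a log2 fold change of 0.42 (standard error 0.27), or 0.27 without CTL replicate 2.

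Ndufa9, an accessory subunit at the junction of the 2 arms of complex I, is annotated on the minus strand of GRCm38 at chr6:126821721-126849136. It was at 101.1, 86.9 and 107.7 CPM in CTL and at 115.2, 122.2 and 107.7 CPM in Prdm1-CKO mice. The lowest Prdm1-CKO mouse lay only just above the highest CTL mouse, and the log2 fold change was 0.22 (standard error 0.16), or 0.13 without CTL replicate 2. Ndufb2, another accessory subunit, was at 17.7, 17.2 and 12.9 CPM in CTL and at 18.7, 18.2 and 17.8 CPM in Prdm1-CKO mice, where CTL replicate 3 and not CTL replicate 2 was the lowest. Its log2 fold change of 0.19 was 0.07 without CTL replicate 3. Ndufs1, a core subunit that holds iron-sulfur clusters, had the lowest log2 fold change of complex I, -0.15 (standard error 0.20). Ndufs1 was at 137.4, 194.9 and 125.0 CPM in CTL and at 148.7, 125.9 and 136.7 CPM in Prdm1-CKO mice. CTL replicate 2 was here the highest mouse, and without it the log2 fold change was 0.05.

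Complex II, or succinate dehydrogenase, is the one complex of the chain with no subunit from the mitochondrial genome. Its 4 members had a summed level of 930.1 ± 110 CPM (SD, n = 3) in CTL and 1009 ± 61.1 CPM (SD, n = 3) in Prdm1-CKO mice. All 4 had a log2 fold change above 0, from 0.07 to 0.19, with a median of 0.15, and of 0.07 without CTL replicate 2. Sdhb, the iron-sulfur subunit, at chr4:140961203-140979193 on the plus strand, was at 227.2, 201.7 and 229.6 CPM in CTL and at 253.7, 255.1 and 232.0 CPM in Prdm1-CKO mice. Sdhd, a membrane anchor at chr9:50596357-50603812 on the minus strand, was at 166.7, 143.0 and 163.8 CPM in CTL and at 168.7, 177.5 and 195.2 CPM in Prdm1-CKO mice. The groups did not overlap in either gene, with log2 fold changes of 0.17 (standard error 0.13) for Sdhb and 0.19 (standard error 0.14) for Sdhd, or 0.10 and 0.12 without CTL replicate 2. Sdha, the flavoprotein that oxidizes succinate, ranged from 401.0 CPM in CTL replicate 2 to 571.4 CPM in Prdm1-CKO replicate 1, and the groups overlapped. Its log2 fold change was 0.07, and -0.07 without CTL replicate 2.

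Complex III passes electrons from ubiquinol to cytochrome c through cytochrome b, which the mitochondrial genome encodes, and through the products of Cyc1 (cytochrome c1) and Uqcrfs1 (the Rieske iron-sulfur protein). The 9 members had a summed level of 1365 ± 103 CPM (SD, n = 3) in CTL and 1498 ± 51.6 CPM (SD, n = 3) in Prdm1-CKO mice. In this complex the sum of each Prdm1-CKO mouse, from 1442 to 1543 CPM, lay above that of each CTL mouse, from 1248 to 1440 CPM, and the gap between the nearest mice was under 2 CPM. All 9 members had a log2 fold change above 0, with a median of 0.15, and 8 of 9 without CTL replicate 2, with a median of 0.09.

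Uqcr11, which encodes a small accessory subunit of complex III, was the 1 member at an unadjusted p under 0.05. It lies on the minus strand at chr10:80402997-80406830. Its level was 41.9, 29.9 and 39.2 CPM in CTL and 55.3, 65.5 and 44.1 CPM in Prdm1-CKO mice, from 252 to 981 counts per library. All Prdm1-CKO mice were above all CTL mice, and the means were 37.0 ± 6.31 CPM and 55.0 ± 10.7 CPM (SD, n = 3 each). The log2 fold change was 0.57 (standard error 0.23, unadjusted p = 0.036 and adjusted p = 0.996 in edgeR, unadjusted p = 0.028 in DESeq2). Without CTL replicate 2 it was 0.43, with an unadjusted p of 0.087 in edgeR. The coding sequence of Uqcr11 has 168 bases, which is in the shortest class of coding length described below. Of the 25-base words of its coding transcript, 23.0% occur in transcripts of other genes. Uqcr10, a further small accessory subunit, was at 67.7, 43.9 and 82.6 CPM in CTL and at 81.4, 101.5 and 76.6 CPM in Prdm1-CKO mice, which overlapped, with a log2 fold change of 0.42 (standard error 0.25), or 0.19 without CTL replicate 2. Uqcrb, an accessory subunit at chr13:66900617-66905378, did not overlap between groups, at 45.6 to 51.2 CPM in CTL and 51.8 to 56.0 CPM in Prdm1-CKO mice. The log2 fold change of Uqcrb was 0.15 (standard error 0.17), or 0.09 without CTL replicate 2, and 62.4% of the 25-base words of its coding transcript also occur in transcripts of other genes.

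Complex IV, cytochrome c oxidase, reduces oxygen at a core made by the mitochondrial genome, around which the nuclear subunits sit. Its summed level was 1436 ± 287 CPM (SD, n = 3) in CTL and 1660 ± 227 CPM in Prdm1-CKO mice (SD, n = 3), and the groups overlapped. The median log2 fold change of its 12 tested members was 0.22, the highest of the 5 complexes, but without CTL replicate 2 it was 0.06, below the 0.09 of complex III and the 0.07 of complexes I and II. CTL replicate 2 was the lowest mouse in 11 of the 12 and Prdm1-CKO replicate 2 the highest in 10. The groups did not overlap in 0 of the 12. The smallest p belonged to Cox7b, at 81.8, 58.0 and 90.8 CPM in CTL and at 96.7, 110.2 and 88.1 CPM in Prdm1-CKO mice, and to Cox7a2, at 89.3, 68.2 and 112.6 CPM in CTL and at 101.6, 139.0 and 102.2 CPM in Prdm1-CKO mice. Both are small subunits with 1 span of the membrane. The log2 fold change was 0.35 (standard error 0.21) for Cox7b and 0.34 (standard error 0.23) for Cox7a2, or 0.18 and 0.17 without CTL replicate 2.

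Several subunits of complex IV have a second gene that is known mostly from heart and skeletal muscle, lung or testis, and the form found in most tissues was the one read in Tfh cells. Cox4i1 was at 212.8 ± 25.3 RPKM (SD, n = 6), where RPKM divides CPM by the length in kilobases of all exons of the gene, and its lung form Cox4i2 had 2 counts in CTL replicate 1 and 0 in each other library. Cox6a1 was at 214.5 ± 47.0 RPKM (SD, n = 6), and the muscle form Cox6a2 had 0 to 2 counts per library. The muscle form Cox7a1 had 0 to 4 counts, against 108.2 ± 24.98 RPKM (SD, n = 6) for Cox7a2 and 127.1 ± 15.1 RPKM (SD, n = 6) for Cox7a2l, whose product joins complexes III and IV. Cox8a was at 341.0 ± 67.6 RPKM (SD, n = 6), while its relatives Cox8b and Cox8c had 0 counts in all 6 libraries, as did Cox7b2, the relative of Cox7b at 72.2 ± 14.3 RPKM (SD, n = 6). A count of 0 allows a level of up to the floor of 3 counts in each library. Cox6b2, the testis form, was the exception that passed the expression filter, with 7 to 22 counts per library and 1.24 ± 0.611 RPKM (SD, n = 6) against 235.3 ± 50.4 RPKM for Cox6b1. It had the lowest log2 fold change of all members, -0.85 with a standard error of 0.66, or -0.47 without CTL replicate 2, and the groups overlapped. Outside the Cox genes, Ndufa4, now assigned to complex IV and kept here under its prefix, was at 100.1 ± 17.9 RPKM (SD, n = 6), and Ndufa4l2, known from cells short of oxygen, had 0 counts.

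Complex V, the ATP synthase, has a catalytic head with the products of Atp5a1, Atp5b and Atp5c1 and a proton-driven ring made of the product that Atp5g1, Atp5g2 and Atp5g3 share. Its 17 members held 38.4% of the summed level of all members. The sum was 4244 ± 477 CPM (SD, n = 3) in CTL and 4540 ± 80.2 CPM (SD, n = 3) in Prdm1-CKO mice, where CTL replicate 3, at 4786 CPM, was above all Prdm1-CKO mice. Each of the 17 had a log2 fold change above 0, from 0.01 to 0.70, with a median of 0.17, and without CTL replicate 2 the median was 0.05 with 11 above 0. Atp5b, the catalytic beta subunit and the most abundant member, was at 1371, 1502 and 1543 CPM in CTL and at 1570.1, 1386 and 1555 CPM in Prdm1-CKO mice. The groups overlapped, with a log2 fold change of 0.03 (standard error 0.12), and Atp5a1 had the same value with a standard error of 0.13, which was -0.03 without CTL replicate 2.

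The 2 members of complex V with the smallest p were Atp5l and Atp5k, which encode small membrane subunits at the dimer interface. Atp5l, at chr9:44912557-44920742 on the minus strand, was at 14.5, 6.63 and 12.1 CPM in CTL and at 17.02, 19.9 and 17.4 CPM in Prdm1-CKO mice. The groups did not overlap, and its log2 fold change of 0.70 (standard error 0.34) was the largest of all members, and 0.43 without CTL replicate 2. Of its coding words of 25 bases, 85.6% occur in other transcripts, so that its level is uncertain. Atp5k was at 20.4, 12.8 and 27.2 CPM in CTL and at 22.8, 48.2 and 22.6 CPM in Prdm1-CKO mice. Prdm1-CKO replicate 2 alone was far above the rest, and the log2 fold change was 0.63 (standard error 0.40), which was 0.18 without that mouse and 0.38 without CTL replicate 2. For the ring, Atp5g3 was at 92.4 ± 21.1 RPKM (SD, n = 6), Atp5g1 at 6.27 ± 1.52 RPKM (SD, n = 6) and Atp5g2 at 2.08 ± 0.875 RPKM (SD, n = 6), but all words of the coding transcript of Atp5g2 are shared with other genes, so that its level is uncertain.

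**Figure D2:**
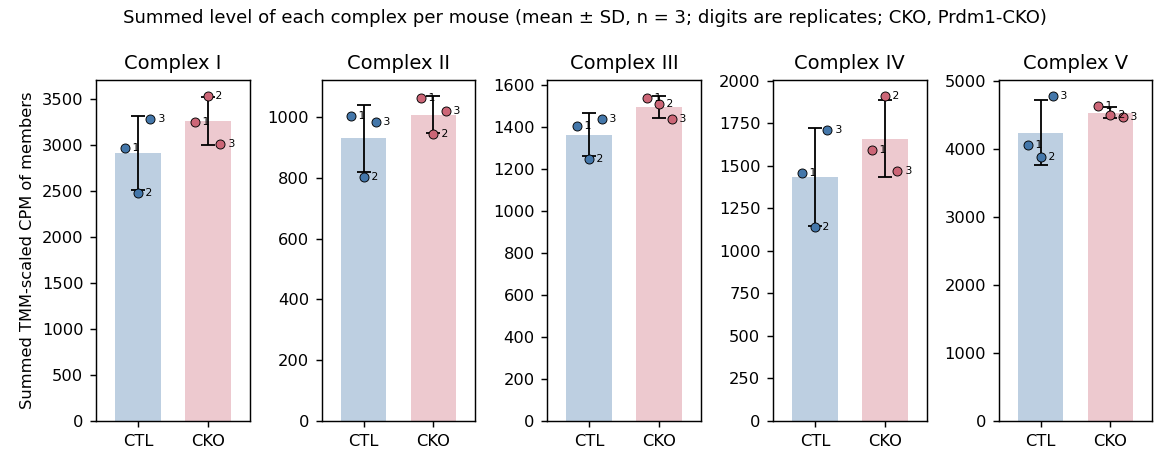
Bars are the mean TMM-scaled CPM summed over the members of each complex, error bars the SD of 3 mice, and numbered points the mice of CTL and Prdm1-CKO. CTL replicate 2 is the lowest point in every complex, and the groups overlap in all complexes but III, where the nearest mice are at 1440 and 1442 CPM.

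Per length of exon, levels spread widely within each complex. In complex I they ran from 170.3 ± 29.6 RPKM (SD, n = 6) for Ndufa1, needed to assemble the membrane arm, down to 3.04 ± 0.378 RPKM (SD, n = 6) for Ndufb2. In complex II, Sdhd at 137.4 ± 13.9 RPKM and Sdha at 120.9 ± 16.0 RPKM (SD, n = 6 each) did not differ beyond their spread, while the anchor Sdhc was at 21.0 ± 1.90 RPKM. Complex III was the most even, from 132.9 ± 14.8 RPKM for Uqcrh to 41.5 ± 8.40 RPKM for Uqcrq, both small accessory subunits. Complex IV ran from Cox8a to Cox6b2, and complex V from 351.2 ± 20.7 RPKM (SD, n = 6) for Atp5b to Atp5g2. Atp5a1 followed Atp5b at 319.6 ± 24.5 RPKM and Atp5c1 was at 201.4 ± 30.2 RPKM. The order depends on the length used. By the length of the transcript with the longest coding sequence, Ndufa4 at 305.7 RPKM and Ndufab1 at 7.57 RPKM were the ends of complex I, Ndufb2 was at 37.6 RPKM and Atp5g1, at 6.54 RPKM, was the lowest of complex V.

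**Figure D3:**
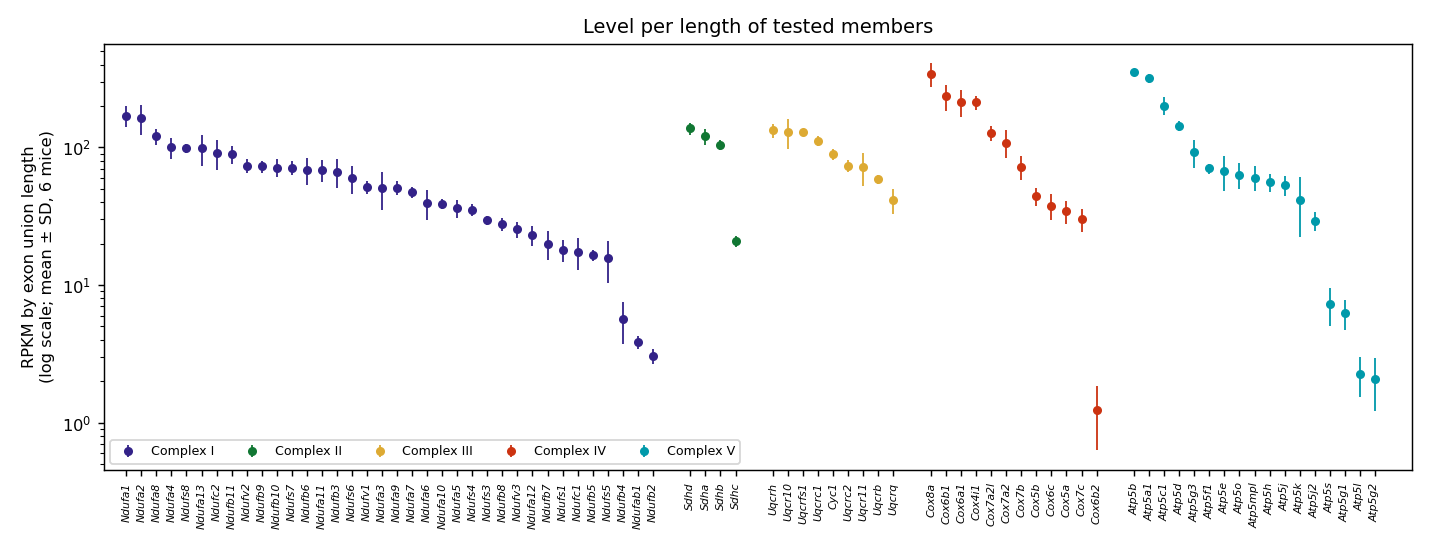
Points are the mean RPKM, by the length of all exons, of 78 of the 79 tested members over the 6 mice. The axis is a log axis, the error bar is the SD over mice, and members are sorted within each complex from the highest to the lowest mean RPKM. Atp5b, at 351.2 RPKM, is the highest point and Cox6b2, at 1.24 RPKM, the lowest.

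The 19 listed core subunits, most of them catalytic or with a cofactor, had a median log2 fold change of 0.12, and the other 60 tested members a median of 0.22. Without CTL replicate 2 these medians were 0.03 and 0.08. The 2 sets also differed in the median length of their coding sequence, 822 and 366 bases, and fold changes went with length. The 18 members with under 300 coding bases had a median log2 fold change of 0.30, the 39 with 300 to under 600 bases 0.18, the 13 with 600 to under 1200 bases 0.15 and the 9 with 1200 or more 0.07. Other coding genes of the same lengths had medians of 0.15, 0.11, 0.05 and -0.04, which were lower in each class and fell in the same order. In the shortest class the median member of CTL replicate 2 was at -0.54 and that of Prdm1-CKO replicate 2 at 0.44 log2 units from the mean over mice, and other short coding genes were at -0.30 and 0.22. Across the 79 members, which share the same 6 libraries, the log2 of the coding length and the log2 fold change had a Pearson correlation of -0.39 and a Spearman correlation of -0.61, against -0.15 and -0.20 across 11595 other coding genes. Genes are not independent replicates. The Pearson correlation without CTL replicate 2 was -0.28 across members and -0.05 across the other genes, and the medians of the members were 0.12, 0.05, 0.07 and 0.03 from the shortest to the longest class, which no longer fell in order. Those of the other coding genes were then 0.040, 0.032, -0.003 and -0.014, which still fell in order and were lower in each class. After a correction for coding length fitted in each mouse over all genes, the median of the members was 0.08 and 64 of 79 were above 0.

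**Figure D4:**
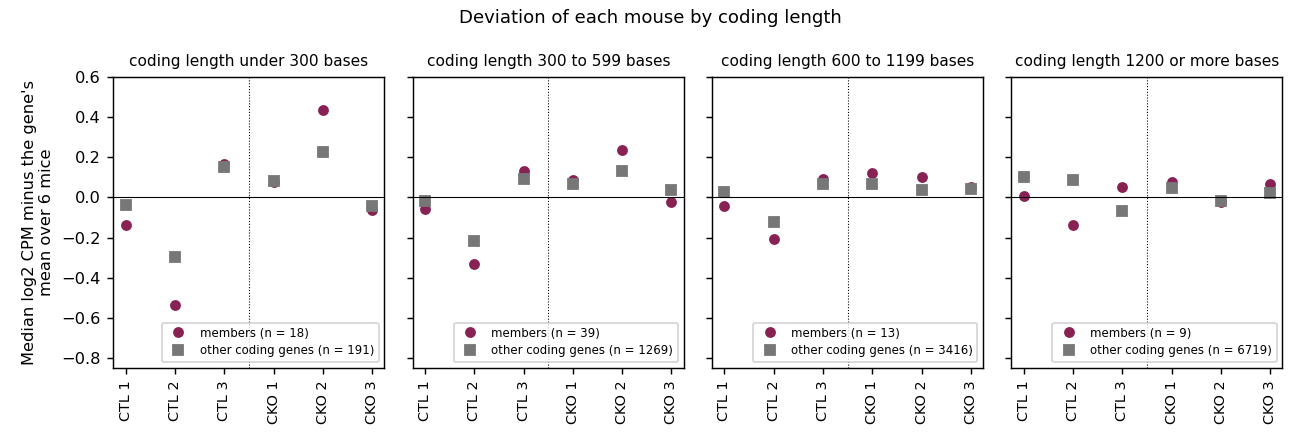
Each panel is a class of coding length, and points are the median over genes of log2 CPM minus the gene's mean over the 6 mice, for members (circles) and other coding genes tested (squares). In the panel under 300 bases CTL replicate 2 is lowest at -0.54 and Prdm1-CKO replicate 2 highest at 0.44 for members, and the other genes of that class have the same lowest and highest mouse.

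**Figure D5:**
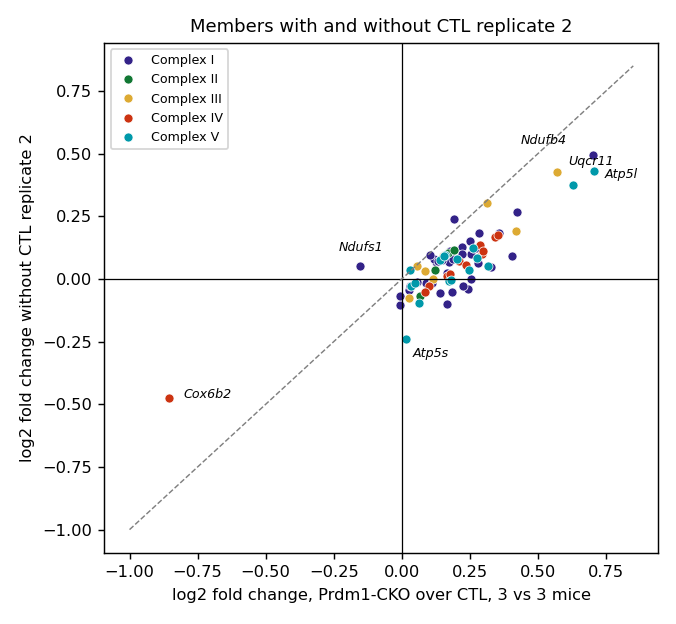
Each point is 1 tested member, coloured by complex, with the edgeR log2 fold change of Prdm1-CKO over CTL from all 6 mice on the horizontal axis and from the 5 mice without CTL replicate 2 on the vertical axis. Of the 79 points, 75 lie right of 0 and 56 above 0, and 75 lie below the dashed line of equal values.

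Other lists of the pathway were set beside the members. Of the assembly factors, which build the complexes and are not part of them, 45 of 47 were tested, 0 passed an unadjusted p under 0.05 in edgeR, 31 had a log2 fold change above 0, and the median was 0.05. The smallest p there belonged to Ttc19, a factor for complex III, at 9.45, 17.2 and 7.10 CPM in CTL and 7.04, 7.83 and 6.37 CPM in Prdm1-CKO mice, and to Atpaf1, which helps build the head of complex V, at 6.95 to 6.99 CPM in CTL and 8.63 to 10.3 CPM in Prdm1-CKO mice, which did not overlap. Ttc19 had a log2 fold change of -0.67 (standard error 0.41) and Atpaf1 one of 0.41 (standard error 0.33), or -0.24 and 0.40 without CTL replicate 2. The 12 tested genes of the electron carriers cytochrome c and ubiquinone had a median of -0.0003 with 6 above 0. Their smallest p belonged to the ubiquinone synthesis genes Coq9, with a log2 fold change of 0.35 (standard error 0.22), and Coq6, with -0.37 (standard error 0.25), or 0.18 and -0.15 without CTL replicate 2. The 14 genes of the tricarboxylic acid cycle had a median of 0.04 with 8 above 0, led by Sucla2, a subunit of succinyl-CoA ligase, at 0.32 (standard error 0.26), and Dlst, a subunit of oxoglutarate dehydrogenase, at 0.17 (standard error 0.16), or 0.05 and 0.11 without CTL replicate 2. In these 3 lists 0 genes passed an adjusted or an unadjusted p under 0.05 in edgeR, and 0 passed an adjusted p under 0.05 in DESeq2.

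The subunits encoded by the mitochondrial genome had the opposite sign. Of 13, 8 were tested, all 8 had a log2 fold change below 0, the median was -0.35, and CTL replicate 2 was the highest mouse in all 8. Without that mouse the median was -0.03, with 4 of 8 above 0. Those not tested were mt-Nd4l, at 2 to 15 counts per library, mt-Co3, at 4 to 9, mt-Co2, at 0 to 3, mt-Atp6, at 0 to 2, and mt-Atp8, at 0. By contrast, mt-Co1 had 45452 to 82840 counts. The list is thus read from part of its genes, and the reason for the low counts was not tested. The catalytic subunit of complex IV, mt-Co1, was at 5006, 8366 and 7122 CPM in CTL and at 2925, 4621 and 5673 CPM in Prdm1-CKO mice, with a log2 fold change of -0.63 (standard error 0.26, unadjusted p = 0.041 and adjusted p = 0.996 in edgeR). For cytochrome b of complex III, mt-Cytb, the levels were 2517, 4673 and 3507 CPM in CTL and 1696, 2450 and 2930 CPM in Prdm1-CKO mice, with a log2 fold change of -0.60 (standard error 0.26, unadjusted p = 0.049 and adjusted p = 0.996 in edgeR). The groups overlapped in both genes. Neither passed an unadjusted p under 0.05 in edgeR once CTL replicate 2 was left out, at -0.48 for mt-Co1 and -0.37 for mt-Cytb. Among regulators of mitochondrial genes, 14 of 15 were tested, 0 passed an unadjusted p under 0.05 in edgeR, 4 were above 0 and the median was -0.12. In 2 of the 14, Gabpb1 and Perm1, every Prdm1-CKO mouse was below every CTL mouse, which is 14.3%, beside 3.86% of all genes tested. The reverse order was seen in 0. The log2 fold change was -0.20 (standard error 0.16) for Gabpb1 and -0.74 (standard error 0.51) for Perm1, which had 29 to 75 counts per library. Polg, the mitochondrial DNA polymerase, was at 76.3, 97.0 and 55.5 CPM in CTL and at 119.9, 88.2 and 102.7 CPM in Prdm1-CKO mice, and Yy1, a transcription factor with binding sites in many respiratory genes, was at 47.7, 55.9 and 44.1 CPM and at 30.2, 43.3 and 44.1 CPM. The log2 fold change was 0.44 (standard error 0.23) for Polg and -0.33 (standard error 0.22) for Yy1. With CTL replicate 2 left out, 1 regulator, Polg, was at an unadjusted p under 0.05 in edgeR, with a log2 fold change of 0.64 (unadjusted p = 0.016).

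Markers of other cells were low in CTL replicate 2 in some lists and not in others. The 7 B cell markers, none of them at 0 in all libraries but Pax5 with 0 counts in CTL replicate 2, summed to 555.1 to 1646 CPM in CTL and 1423 to 2103 CPM in Prdm1-CKO mice, and the 8 macrophage markers to 166.9 to 702.7 and 522.9 to 706.6 CPM, with CTL replicate 2 lowest in both lists. The 6 plasma cell markers summed to 482.4 to 734.5 CPM in CTL and 734.9 to 941.2 CPM in Prdm1-CKO mice, so that the nearest mice of the groups were within 1 CPM, and CTL replicate 2 was again the lowest. The sums of the 7 markers of CD8 T and NK cells were 234.4 to 304.1 CPM in CTL and 197.6 to 230.7 CPM in Prdm1-CKO mice. Those of the 4 Treg markers were 694.7 to 770.2 and 603.9 to 678.8 CPM. Neither sum overlapped, with Prdm1-CKO mice lower. Nkg7 alone averaged 163.1 CPM in CTL and 129.7 CPM in Prdm1-CKO mice. Cd8a (6 to 42 counts per library), Nkg7 and Gzma were lower in every Prdm1-CKO mouse than in every CTL mouse. Cd8b1 was higher in every Prdm1-CKO mouse, and Gzmb, Prf1 and Klrd1 overlapped. Foxp3, Il2ra, Ikzf2 and Ctla4 each overlapped, so that no Treg gene separated the groups by itself. The 7 erythroid markers were at 7.11 to 17.6 and 12.1 to 47.4 CPM, with CTL replicate 2 lowest, and the 7 markers of dividing cells at 782.7 to 1092 and 938.0 to 1123 CPM. CTL replicate 2 was the highest mouse in the Treg sum, and by gene in Il2ra and Ikzf2 but not in Foxp3 or Ctla4. It was the highest CTL mouse in the sum of dividing cells through Mki67, at 307.9 CPM, and Top2a, at 380.7 CPM. In Ccnb1 and Cdk1 it was the lowest of the 6 mice, at 39.9 and 62.0 CPM, and in Ccnb2, Birc5 and Ube2c it lay between the other CTL mice. Ccnb1 and Birc5 were higher in every Prdm1-CKO mouse, and the other genes of that list overlapped. The part of these other cells in the levels of the members was not tested.

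The promoters of the members were read for 3 motifs of factors known to bind respiratory genes: TGCGCA, the core of the NRF1 site, CCGGAAG, the site of GABP and other ETS factors, and AAGATGGCG, the site of YY1. RefSeq promoters on GRCm38.p6, from 250 bases before to 50 after the start, were found for 69 of the 86 members, 2 of them under a newer symbol. On either strand, TGCGCA was present in 26.1% of these members, in 15.9% of 9885 other tested genes and in 8.79% of all 27025 genes with a promoter. CCGGAAG was present in 23.2%, 20.7% and 9.93%, and AAGATGGCG in 10.1%, 3.58% and 1.64%. At least 1 motif was present in 34 of the 69 members, or 49.3%, in 34.9% of the other tested genes and in 18.1% of all genes with a promoter. In the members, 6 of the 7 matches of AAGATGGCG lay between bases 22 and 35 after the start. A match is a description of the letters and not of binding. Bases 140 to 41 before the start are shown for 1 member of each of complexes I, III, IV and V, each with a match in this window and no annotated exon there. They include Uqcr11 and Ndufa9, whose groups did not overlap, and Cox5b and Atp5e, whose groups did. Capitals mark the motif, read 5′ to 3′ on the strand of the gene, where CTTCCGG is the reverse complement of CCGGAAG. The windows are chr6:126849185-126849284 (minus strand), chr10:80406862-80406961 (minus strand), chr1:36691347-36691446 (plus strand) and chr2:174464142-174464241 (minus strand).
Ndufa9, complex I: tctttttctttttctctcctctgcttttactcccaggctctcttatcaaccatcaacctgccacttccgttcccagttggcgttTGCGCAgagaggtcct
Uqcr11, complex III: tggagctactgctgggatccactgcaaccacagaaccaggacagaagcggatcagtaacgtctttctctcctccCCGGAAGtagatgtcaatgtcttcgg
Cox5b, complex IV: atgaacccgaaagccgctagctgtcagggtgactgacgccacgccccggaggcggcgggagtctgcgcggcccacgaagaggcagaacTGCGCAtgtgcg
Atp5e, complex V: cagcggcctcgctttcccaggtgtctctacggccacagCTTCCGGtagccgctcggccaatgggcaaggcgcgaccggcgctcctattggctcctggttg

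Near-identical copies and overlapping genes limit how well single members can be read. Of the 86 members, 41 share over 10% of the 25-base words of their coding transcript with transcripts of other genes, 9 share over 50%, and 15 share none. The 9 were Atp5g2, Atp5l, Atp5o, Atp5h, Uqcrb, Ndufs3, Ndufa12, Cox7c and Cox5a. Of other members described above, Ndufb2 shares 49.0%, Ndufb4 38.65% and Atp5k 25.9%, while Ndufa9 shares 3.17% and Sdhb and Sdhd share none. Without the members that share over 10%, the median log2 fold change of the rest was 0.16. The strand setting of the counting is not given in the sources used here, and exons of some members overlap those of a gene on the opposite strand: 39.0% of the exon length of Ndufb6 with Smim27, 30.0% of Ndufa13 with Tssk6 and 19.7% of Uqcrc2 with Pdzd9. On the same strand, 19.5% of Ndufb9 overlaps Gm49356.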

How the data were processed

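The authors made Smart-seq2 libraries from sorted Tfh cells, sequenced them in pairs of 25 bases and used featureCounts to count them by gene. The authors deposited these raw counts without normalization, in 1 file for each mouse. The submitters' processing notes list STAR 2.4.2a, DESeq2 and GRCm38.p6. Strandedness and the handling of reads with several alignments are not given in the sources used here. Identifiers were matched without version to GENCODE M21, which held 53274 of 53379, and coordinates are given for members whose version is the same.

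Counts were tested in R 4.3.3 with edgeR 4.0.16 (filterByExpr, TMM, quasi-likelihood F test, two-sided, no covariate, Benjamini-Hochberg over 14555 genes). An exact permutation test of 3 against 3 mice cannot give a two-sided p under 0.1. Log2 CPM used a prior count of 2. Alternatives were DESeq2 1.42.0, limma 3.58.1 voom with sample quality weights, DESeq2 size factors, other filters, a length correction (lowess span 0.3), the replicate number as a block, abundant genes left out and each mouse left out. The coding length correction and RPKM by coding transcript were added after seeing the data. Each tool was run on simulated data with planted changes larger than that of any member and with no outlying mouse. These runs cannot show how well smaller changes are found.

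Members and lists were chosen with earlier results of these data known, so no test was run over a list. Named were the 2 tested members with the smallest p in each complex, the highest and lowest per length, those whose groups do not overlap, isoform families, the listed catalytic subunits and the 2 genes with the smallest p in each pathway list. Of the members, 1 is not reported here by itself and stays in every fit, count and median. Ndufs1 was described in full after its values were seen, for its opposite sign. Gabpb1, Perm1 and single marker genes of other cells were also named after their values were seen.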

Additional observations from a re-analysis of the deposited data

How the results depend on the processing

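The number of members at an adjusted p under 0.05 was 0 in both directions under every alternative, and all 9 genes that DESeq2's Wald test called over the whole table, and the 1 gene that edgeR called without the filter, were not members. The number at an unadjusted p under 0.05 and higher, 1 with all 6 mice, was 0 under voom with sample quality weights, with the replicate block, with the length correction and the replicate block, and with the coding length correction, and it ranged from 0 to 6 when each mouse was left out (0 without CTL replicate 2, 6 without CTL replicate 3). The cause was not tested. Without CTL replicate 2, 186 of the 14555 genes tested with all 6 mice were higher at an unadjusted p under 0.05 in edgeR, and 118 were lower. The number over all genes was not counted for the other mice left out. The number of members whose groups do not overlap and were higher ranged from 6 (without CTL replicate 2) to 46 (without CTL replicate 3), and the number lower from 0 to 1, where a group of 2 mice overlaps less readily by construction.

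The median log2 fold change over the members stayed above 0 in all alternatives. It was 0.12 with the length correction, 0.11 with voom, 0.08 with the coding length correction and 0.20 without a filter, and from 0.07 (without CTL replicate 2) to 0.30 (without CTL replicate 3) when each mouse was left out. Without CTL replicate 2 the log2 fold change of 21 of the 79 members changed sign, among them Sdha, Uqcrh, Cox4i1, Cox7a2l, Atp5a1, Atp5c1, Atp5g2 and Ndufs1. Ndufs1 had a range from -0.27 to 0.053 when each mouse was left out and 0.053 without CTL replicate 2. The correlation of deviations between mice with the same replicate number was 0.16, 0.03 and 0.02, so that the numbers were not taken as pairs. With the replicate block the median was 0.19. Low counts limit what can be read of the 7 members that were not tested, at 0 to 4 counts per library. The same holds for Cox6b2 and Atp5g2, which had 7 to 69 counts per library.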
